A study of Homo sapiens with 6 samples.

Results

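The genes described here prepare peptides for display on MHC class I, and 10 of them were followed: B2M, TAP1, TAP2, TAPBP, PSMB8, PSMB9, PSMB10, NLRC5, ERAP1 and ERAP2. They were taken by name from the platform annotation, which pairs 20 probe sets with these symbols, each with 1 symbol alone, and each gene was read by its brightest probe set, judged on all 6 arrays together. All 10 genes were found among the 18381 genes tested, and none was removed by a filter on level. The samples were cultures of MDA-MB-231, an established line from a human breast tumour with mesenchymal features and without hormone receptors. In 3 cultures the cells carried GHSROS, a long noncoding RNA gene antisense to the ghrelin receptor gene, in the pTargeT mammalian expression vector, and in 3 cultures they carried pTargeT with no insert. All 6 thus went through transfection and held the vector. Whether the cells were selected, pooled or grown from 1 clone is stated in none of the labels used here. RNA was read on 1-colour Affymetrix Human Gene arrays, and the values are log2 expression per probe set. The comparison asks which genes differ in level in cells made to carry GHSROS.

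Proteins in the cytosol are cut into peptides by the proteasome. In cells exposed to interferon, the catalytic subunits PSMB5, PSMB6 and PSMB7 are replaced, in that order, by PSMB8, PSMB9 and PSMB10, which form the immunoproteasome and favour cuts that suit class I binding. The TAP1 and TAP2 proteins together form the transporter that carries peptides into the endoplasmic reticulum, tapasin (TAPBP) bridges the transporter and the empty class I molecule, and the aminopeptidases ERAP1 and ERAP2 trim peptides to length. B2M is the light chain that every classical class I molecule needs to reach the surface, and NLRC5 is the transactivator of class I genes. Tumour cells often carry little of this machinery, which hides them from cytotoxic T cells.

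The starts of 8 of these genes hold a short sequence in common, and whether it bears on their levels here was not tested. RefSeq windows of 300 bases, from 250 before to 50 after each start (GRCh38.p14), were at hand for 9 members. NLRC5 had none. Of the 9, 4 had 2 starts, which gave 13 windows. A pattern bound by interferon regulatory factors, GAAA and after any 2 bases a second GAAA, is called the IRF element below and was searched on both strands. It occurred in 8 of the 13 windows, 1 for each of 8 genes, and in 3.57% of the 35116 promoter windows of the table. B2M, TAP1 and TAPBP held 2 matches each, which overlap. The stretches below are 30 bases around the first match in each window, turned so that the element reads as spelled, with every matching base in capitals.
B2M, chr15:44711363-44711392, plus strand: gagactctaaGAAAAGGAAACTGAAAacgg
TAP1, chr6:32853819-32853848, plus strand: agggGAAAGCGAAATCGAAAgcggccgcct
TAP2, chr6:32838778-32838807, minus strand: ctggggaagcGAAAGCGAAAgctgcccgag
TAPBP, chr6:33314079-33314108, minus strand: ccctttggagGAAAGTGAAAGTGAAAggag
PSMB8, chr6:32844032-32844061, plus strand: aggaggaagtGAAAGCGAAAgccacagatc
PSMB10, chr16:67936852-67936881, minus strand: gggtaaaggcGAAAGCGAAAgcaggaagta
ERAP1, chr5:96807924-96807953, plus strand: ccccaggaccGAAAGTGAAAgtggagcccg
ERAP2, chr5:96876460-96876489, plus strand: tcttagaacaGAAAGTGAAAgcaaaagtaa

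PSMB9 was the member with windows but no such match in its own. Its start lies 488 bases from that of TAP1, on the opposite strand, and their windows share 13 bases. The nearest IRF match in the TAP1 window is 354 bases before the PSMB9 start. Both windows are printed whole because these divergent neighbours had the 2 widest ranges of all members. Capitals mark the IRF element, the GAS element TTCNNNGAA and the kappaB-like element, which is GGGA, any 4 bases and CC.
TAP1, chr6:32853655-32853954, minus strand: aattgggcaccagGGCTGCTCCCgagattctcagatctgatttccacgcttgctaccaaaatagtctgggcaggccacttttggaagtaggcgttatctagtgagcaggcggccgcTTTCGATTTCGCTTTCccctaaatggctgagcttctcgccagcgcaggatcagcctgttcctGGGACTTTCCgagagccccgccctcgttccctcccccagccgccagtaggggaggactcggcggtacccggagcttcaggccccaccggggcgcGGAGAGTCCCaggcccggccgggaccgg
PSMB9, chr6:32853942-32854241, plus strand: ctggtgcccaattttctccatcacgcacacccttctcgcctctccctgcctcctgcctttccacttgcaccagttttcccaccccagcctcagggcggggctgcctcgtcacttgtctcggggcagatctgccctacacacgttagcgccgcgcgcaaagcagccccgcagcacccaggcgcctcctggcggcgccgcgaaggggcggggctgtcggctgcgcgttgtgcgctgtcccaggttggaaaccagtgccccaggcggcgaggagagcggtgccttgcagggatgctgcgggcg

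The GAS element, a pattern bound by STAT proteins, was found in 2 of the 13 windows against 7.66% of all windows. The kappaB-like element was in 4 member windows and 25.6% of all, the CCAAT box, read as CCAAT, in 4 and 34.6%, and the cyclic AMP element core TGACG in 4 and 24.6%. The CCAAT matches of TAP1 and PSMB9 are the same bases, within the 13 that their windows share. All were searched on both strands. A match describes these letters only.

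**Figure D1:**
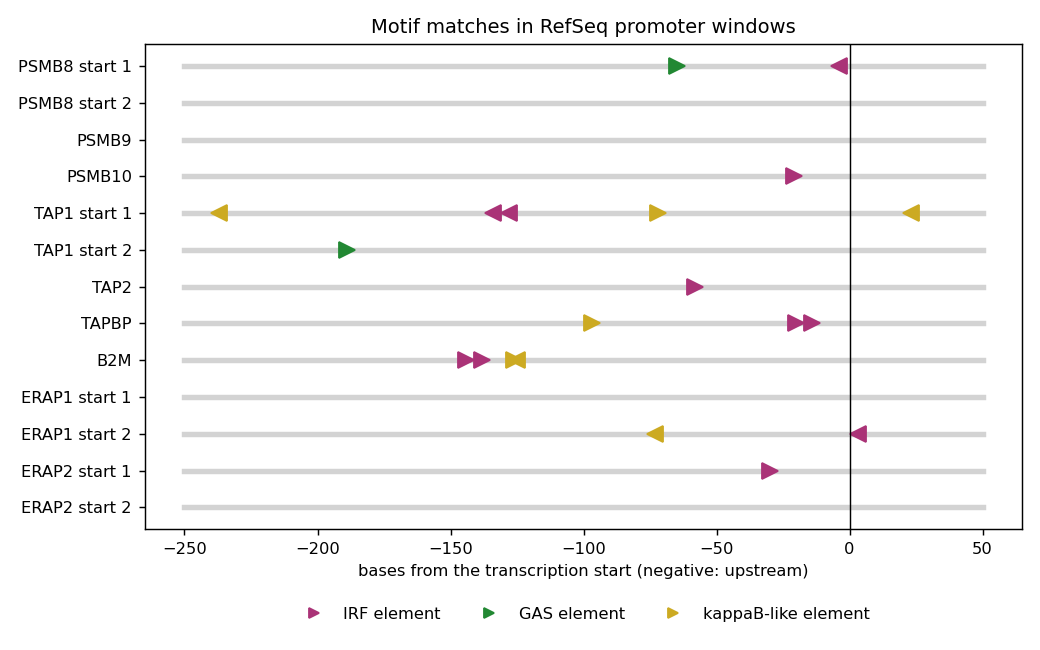
Matches of 3 motifs in the 13 RefSeq promoter windows of 9 members, by the distance in bases of the leftmost base of the match from the transcription start. Arrowheads point along the strand that carries the motif, and IRF matches (purple) appear in 8 windows, among them that of TAP2 and not that of PSMB9.

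The arrays differed within both groups. Their medians ran from 6.56 to 6.65, and each array correlated best across probe sets with an array of the other group, at r of 0.9970 to 0.9972. Empty-vector array 1 and GHSROS array 3 stood apart: the mean of 30 mitosis genes was 9.94 and 9.96 there and 10.74 to 10.98 on the other 4. ATF4 stress genes, which respond to amino acid shortage, averaged 10.33 and 10.36 on those arrays and 9.19 to 9.64 on the others. No batch is given in the labels, and 0 probe sets were paired with GHSROS, so the transfected transcript could not be followed. Line markers VIM, CD44 and AXL lay between 12.82 and 13.37 and ESR1, PGR and CDH1 between 4.41 and 5.35. SPARC and ERBB2 went against their listing. SPARC, listed as high in this line, was at 5.86 to 6.64, and ERBB2, listed as low, lay above the array medians at 8.81 to 8.99. EPCAM, also listed as low, lay above the array medians at 6.90 to 7.67. By mean level EPCAM was near the middle of the genes tested, at percentile 48.0. The 5 lymphocyte markers measured lay between 3.38 and 6.37 on every array, below the array medians, as did the myeloid markers LYZ, ITGAM and CSF1R, at 3.76 to 6.36. CD68, a lysosomal gene also expressed outside myeloid cells, was at 12.06 to 12.66.

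Between the vectors, no difference was detected in these genes. Of the 10 members 5 had a higher mean with GHSROS and 5 a lower one, against 50.9% higher among all genes, and the median log2 fold change was 0.01 beside 0.00 for all genes. In limma 0 members passed an adjusted p of 0.05 or an unadjusted p of 0.05, where 0% of all genes passed the first (0 of 18381) and 1.76% the second. The second share is 324 genes, fewer than the 919 that chance alone would give if no gene differed. Why there were fewer was not tested. The groups overlapped in all 10 members, and were apart in 5.51% of all genes. Single arrays moved the count of higher members: it was 8 without empty-vector array 1, GHSROS array 1 or GHSROS array 2, 3 without empty-vector array 2 or 3, and 2 without GHSROS array 3. Without both arrays that stood apart it was 4. The 95% intervals of 7 members reached past a 1.5-fold difference one way or the other, so for those the arrays show neither a change of that size nor its absence. The intervals of the other 3 lay within 1.5-fold, from 0.78 to 1.22 for TAP2, 0.77 to 1.18 for NLRC5 and 0.92 to 1.37 for ERAP1, as ratios of GHSROS to empty vector.

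The immunoproteasome subunits varied by 1.72-fold to 2.17-fold between arrays, and their group means differed by less than the SD between arrays. PSMB9 read 9.78, 8.98 and 8.67 on empty-vector arrays 1, 2 and 3 and 8.74, 8.73 and 9.71 on GHSROS arrays 1, 2 and 3. One array of each group was thus high and the other two low, and the groups overlapped. The means were 9.14 ± 0.58 and 9.06 ± 0.57 (SD, n = 3), with the log2 fold change at -0.08 (SE 0.36) and its 95% interval from -0.94 to 0.78.

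PSMB10, on chromosome 16 and thus away from the MHC, gave 8.54, 7.67 and 7.87 with the empty vector and 7.87, 7.78 and 8.72 with GHSROS. The same arrays were high as for PSMB9. Its log2 fold change was 0.10 (SE 0.31), with an interval from -0.64 to 0.83. PSMB8 stood at 8.89, 8.26 and 8.27 with the empty vector and at 8.30, 8.15 and 8.94 with GHSROS. The other 4 values lay between 8.15 and 8.30, so that the same 2 arrays were high. The log2 fold change of PSMB8 was -0.01 (SE 0.25), with an interval from -0.61 to 0.59.

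The constitutive subunits that these replace ran the other way across arrays. PSMB5 read 10.85, 11.20 and 11.48 with the empty vector and 11.36, 11.19 and 11.05 with GHSROS. PSMB6 read 11.98, 12.23 and 12.43, then 12.25, 12.27 and 11.97, and PSMB7 12.22, 12.47 and 12.65, then 12.49, 12.44 and 12.29. Each was lowest on the 2 arrays where PSMB8, PSMB9 and PSMB10 were highest, and each ranged less, by 0.63, 0.46 and 0.43 on the log2 scale beside 0.78, 1.11 and 1.04 for PSMB8, PSMB9 and PSMB10. Of the 15 genes of the constitutive proteasome list, which holds the alpha and beta subunits and the assembly factor POMP, 11 were lowest on empty-vector array 1 and GHSROS array 3. Among all genes 20.3% had that order. Between vectors 7 of the 15 were higher and 8 lower, 0 passed, the median log2 fold change was -0.003, and the largest differences were -0.07 (SE 0.12) for PSMA5 and 0.05 (SE 0.11) for PSMA2. Of the 4 proteasome activator genes 2 were higher and 2 lower with 0 past the test, led by PSME4 at 0.15 (SE 0.22) and PSME2 at -0.07 (SE 0.10). PSME1, an activator subunit induced by interferon and picked out after its values were seen, was highest on the same 2 arrays as the immunosubunits, at 10.86 and 11.11 against 10.39 to 10.63. It was the 1 activator of 4 with that order: PSME3 and PSME4 were lowest on those arrays, and PSME2, its partner in the same activator, was highest on empty-vector arrays 1 and 3 and ranged by 0.25 on the log2 scale.

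TAP1 and TAP2, the partners in the peptide transporter, moved in opposite directions from array to array. TAP1 read 11.00, 10.32 and 9.96 on empty-vector arrays 1, 2 and 3 and 10.05, 10.35 and 10.97 on the GHSROS arrays, a 2.06-fold range. TAP2 read 9.77, 10.00 and 10.22 with the empty vector and 10.10, 9.92 and 9.86 with GHSROS, a 1.37-fold range. Across the 6 arrays TAP1 was highest where TAP2 was lowest and the reverse, with r = -0.929, given as a description over arrays that share the differences above. TAP2 correlated negatively with each of the other 9 members, at -0.929 to -0.606. Its 2 other probe sets had the same order of arrays at the extremes, 9.73 and 9.54 on empty-vector array 1 and 10.14 and 10.01 on empty-vector array 3.

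In the RefSeq table TAP2, PSMB8, TAP1 and PSMB9 follow each other on chromosome 6 with no other protein-coding gene between them, and TAP2 was the one of the 4 that was low where the others were high. Between vectors TAP1 averaged 10.43 ± 0.53 and 10.46 ± 0.47 (SD, n = 3), with the log2 fold change at 0.03 (SE 0.32) and its interval from -0.73 to 0.79. TAP2 averaged 9.99 ± 0.23 and 9.96 ± 0.12, with the log2 fold change at -0.03 (SE 0.14) and its interval from -0.36 to 0.29. Both differences were far smaller than the SD between arrays.

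**Figure D2:**
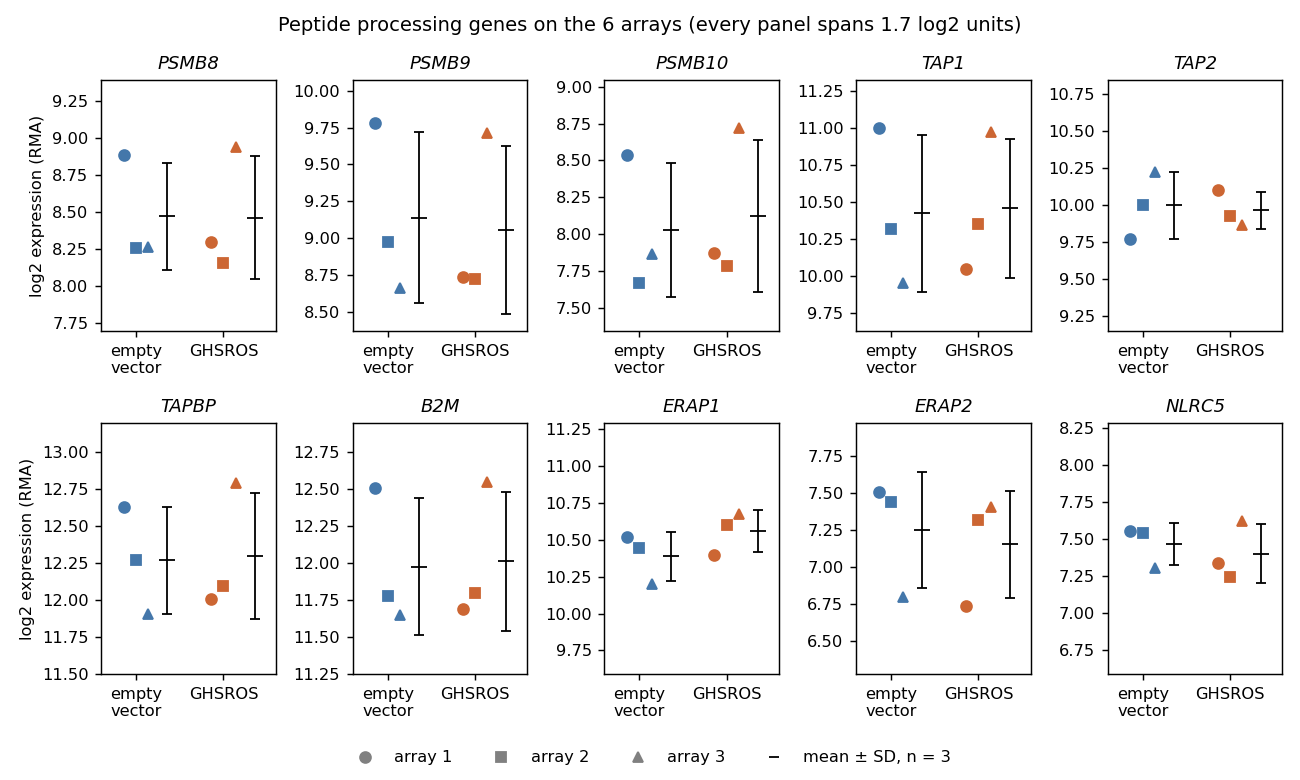
Log2 expression of the 10 members on each array, with a panel per gene spanning 1.7 log2 units, marker shape for the array number, and the mean ± SD of each group (n = 3) in black. Empty-vector array 1 and GHSROS array 3 are the highest in 7 panels and the lowest in that of TAP2, and group means differ by less than the error bars in all but that of ERAP1.

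Tapasin and the class I light chain followed TAP1. TAPBP read 12.63, 12.27 and 11.90 with the empty vector and 12.01, 12.10 and 12.79 with GHSROS. Again 1 array of each group was high. Its log2 fold change was 0.03 (SE 0.26), with an interval from -0.58 to 0.64, and its 2 other probe sets gave 0.03 and 0.08. B2M read 12.51, 11.78 and 11.65 with the empty vector and 11.69, 11.80 and 12.55 with GHSROS. The means were 11.98 ± 0.46 and 12.01 ± 0.47 (SD, n = 3), with the log2 fold change at 0.03 (SE 0.30) and its interval from -0.67 to 0.74. Among B2M, TAP1, TAPBP, PSMB8, PSMB9 and PSMB10, the 15 pairwise correlations over 6 arrays lay between 0.871 and 0.983. For TAP1, PSMB8 and PSMB9 the 3 probe sets of each gene held identical values and were counted once.

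HLA-B, HLA-C and HLA-F, which encode heavy chains that B2M pairs with, were read by probe sets with several symbols, so they cannot be told apart, and allelic differences in the probed sequence can affect such values. The probe set naming HLA-B and HLA-C gave 13.47, 12.63 and 12.23 with the empty vector and 12.41, 12.43 and 13.51 with GHSROS. The one naming HLA-B and HLA-F gave 9.07, 8.12 and 7.80, then 8.01, 7.92 and 9.10. Both ranged more widely than any of the 10 members, by 1.27 and 1.30 on the log2 scale, and their log2 fold changes were 0.00 (SE 0.40) and 0.02 (SE 0.42), with 0 of the 2 past the test.

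Most other genes of the loading complex and its chaperones ranged narrowly over the arrays, 7 of 8 by 0.14 to 0.39 on the log2 scale. Of the 8, 7 were higher with GHSROS and 1 lower, against 50.9% higher among all genes. Log2 fold changes of the 7 ran from 0.001 for GANAB to 0.11. Of the 8, 0 passed, and the median log2 fold change was 0.02. The largest differences were 0.11 (SE 0.09) for the probe set naming the oxidoreductase gene PDIA3 with its pseudogene PDIA3P1 and 0.07 (SE 0.12) for ERP29. CANX, the chaperone that receives new heavy chains, ranged by 0.15 on the log2 scale, and CALR, which takes over after it, by 0.23. TAPBPL, which encodes the tapasin-related editor TAPBPR and was picked out after its values were seen, ranged by 1.16 instead, at 7.66, 6.68 and 6.50 with the empty vector and 6.87, 6.50 and 7.50 with GHSROS.

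The trimming enzymes followed TAP1 in part. Like TAP1 they were lowest on empty-vector array 3 and GHSROS array 1, and they correlated with it at 0.763 (ERAP1) and 0.805 (ERAP2). Their highest arrays differed from those of TAP1. ERAP1 read 10.51, 10.45 and 10.20 with the empty vector and 10.40, 10.60 and 10.68 with GHSROS. Here GHSROS arrays 2 and 3 were the 2 highest, and the groups still overlapped through GHSROS array 1. The means were 10.39 ± 0.16 and 10.56 ± 0.14 (SD, n = 3). The log2 fold change was 0.17 (SE 0.12) with an interval from -0.12 to 0.46 and an unadjusted p of 0.207 in limma (adjusted p = 1), the smallest of the 10 members. It was positive under each of the 18 alternative settings, between 0.02 without both arrays numbered 3 and 0.25 without GHSROS array 1.

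ERAP2, the neighbour of ERAP1 on chromosome 5, read 7.51, 7.44 and 6.80 with the empty vector and 6.74, 7.32 and 7.40 with GHSROS. It was low on 1 array of each group, empty-vector array 3 and GHSROS array 1, and close on the other 4. Its log2 fold change was -0.10 (SE 0.25), with an interval from -0.68 to 0.49. Of 7 other peptidase genes measured, 3 were higher and 4 lower with 0 past the test and a median log2 fold change of -0.06. The largest differences were 0.17 (SE 0.16) for LAP3 and -0.14 (SE 0.16) for DPP9.

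NLRC5, the transactivator, varied least of the 10 members, with an SD of 0.16 over the 6 arrays beside a median of 0.14 over all genes. It read 7.55, 7.54 and 7.30 with the empty vector and 7.33, 7.24 and 7.62 with GHSROS, a 1.30-fold range. It was highest on empty-vector array 1 and GHSROS array 3, as were TAP1, B2M and PSMB9. With B2M, TAP1, TAPBP, PSMB8, PSMB9 and PSMB10 it correlated at 0.682 to 0.882 over the arrays. In NLRC5 empty-vector arrays 1 and 2 were nearly equal, where TAP1, B2M and PSMB9 differed between them. Its log2 fold change was -0.06 (SE 0.13), with an interval from -0.37 to 0.24. All 60 values of the 10 members lay above the median of all probe sets on their array, with NLRC5 and ERAP2 nearest to it. Among the genes tested, NLRC5 and ERAP2 lay below the median by mean level, at percentiles 48.8 and 46.1.

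**Figure D3:**
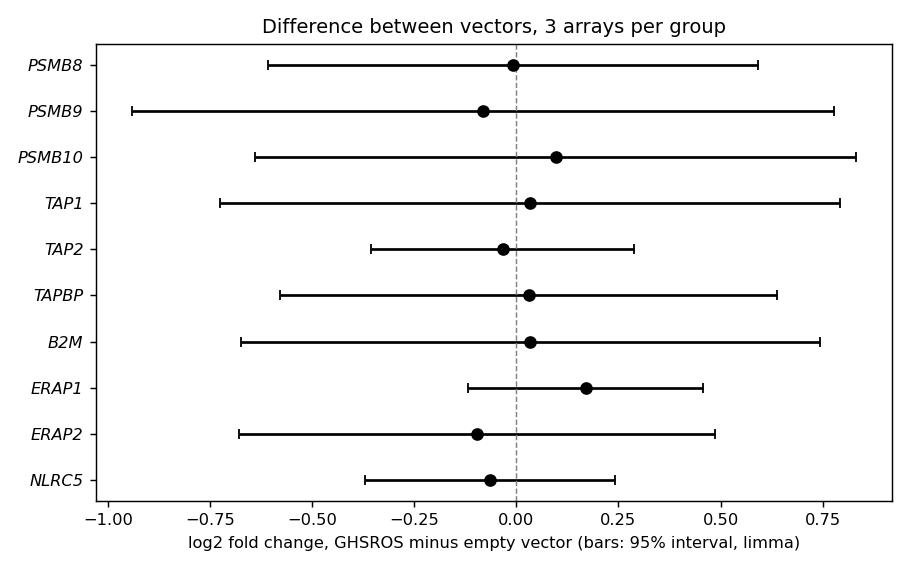
Log2 fold change of each member, GHSROS minus empty vector, with limma's 95% interval (3 arrays per group). Every interval spans 0, from -0.94 to 0.78 for PSMB9 and from -0.37 to 0.24 for NLRC5.

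Upstream regulators gave a mixed picture. IRF1, an interferon-induced factor that binds IRF elements, read 9.36, 8.94 and 8.73 with the empty vector and 8.29, 8.26 and 9.77 with GHSROS, a range of 1.51 on the log2 scale. It was highest on the 2 arrays where the immunosubunits were highest. On the others, both GHSROS arrays lay below both empty-vector arrays, and the log2 fold change over all 6 was -0.24 (SE 0.41). CIITA, the class II counterpart of NLRC5, differed by -0.16 (SE 0.10), and RFX5, a factor of the complex that NLRC5 binds, by 0.00 (SE 0.10). Of the 22 regulators measured 10 were higher and 12 lower with GHSROS, 0 passed, and the median log2 fold change was -0.01. IRF9, which partners STAT proteins and was picked out after its values were seen, read 8.41, 7.88 and 7.73, then 7.87, 7.95 and 8.45.

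Across the arrays, 7 of the 10 members were highest on empty-vector array 1 and GHSROS array 3, and TAP2 was lowest on both. Among all genes 18.9% had these arrays as their 2 highest, the most common pair, and 20.3% as their 2 lowest. Next came empty-vector array 3 with GHSROS array 1, the 2 highest in 16.8% of all genes. Of the 22 regulators 10 had empty-vector array 1 and GHSROS array 3 highest and 5 had them lowest. The mean of 39 interferon-stimulated genes was 8.09 and 7.95 on these arrays and 7.41 to 7.72 on the others, 22 of them being highest there and 0 lowest, while all 30 mitosis genes were lowest there and 15 of 19 ATF4 stress genes highest. Between vectors 10 of the 39 interferon-stimulated genes had a higher mean with GHSROS and 29 a lower one, against 50.9% higher among all genes. The list's median log2 fold change was -0.09, with 0 past the test. At an unadjusted p of 0.05 in limma there were 5 of the 39, against 1.76% of all genes. Lower were IFI27 at -0.64 (SE 0.22), OAS2 at -0.41 (SE 0.17), RIGI at -0.35 (SE 0.14) and OAS1 at -0.24 (SE 0.08). HERC5 was higher, at 0.28 (SE 0.09). These 5 were chosen after their values were seen, each with an adjusted p of 1. The count of higher genes in the list moved with single arrays, in a comparison of means added after the data were seen. It was 18 without empty-vector array 1 or GHSROS array 1, 16 without GHSROS array 2 and 7 without GHSROS array 3. It was 11 without empty-vector array 2, 8 without empty-vector array 3 and 9 without both arrays that stood apart. More genes were lower than higher each time, by 21 to 18 at the closest. The median difference stayed negative, from -0.27 to -0.02. These settings share most of their arrays and are not separate checks. The part of interferon signalling, of stress or of cell cycle state in the members' levels was not tested. In RNA of whole cultures, a change in the share of cells that express a gene and a change in RNA per cell cannot be told apart.

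**Figure D4:**
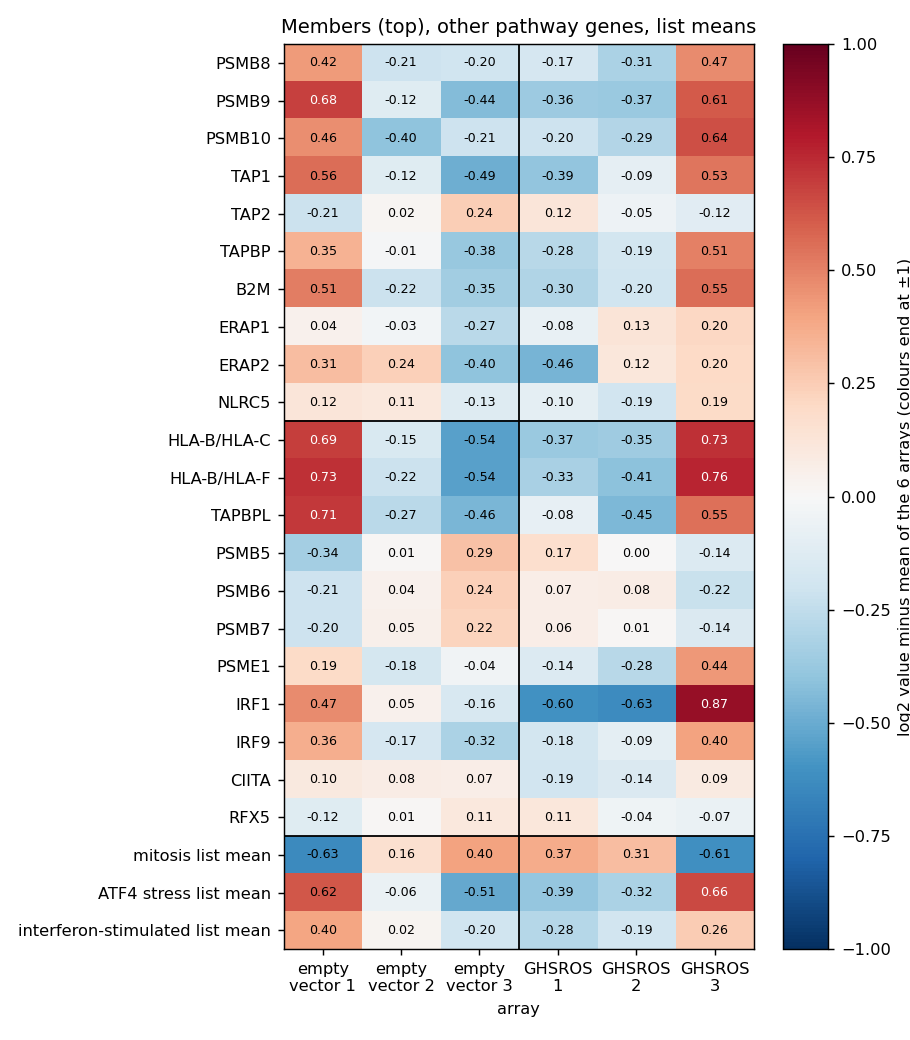
Log2 values on each array minus the gene's mean over the 6 arrays, for the 10 members (top), 11 other pathway features (middle) and the means of the mitosis, ATF4 stress and interferon-stimulated lists (bottom). PSMB8, PSMB9, PSMB10, TAP1, TAPBP, B2M and the HLA probe sets are positive on empty-vector array 1 and GHSROS array 3 and below 0 on the other 4, while TAP2, PSMB5, PSMB6, PSMB7 and the mitosis mean are negative on both.

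PSMB9 had the largest SD over the 6 arrays of the 10 members, 0.51 beside a median of 0.14 over all genes. Of 5020 genes outside the members with an SD of at least 0.2, those that followed it most closely were ANKRD29 (r = 0.9991), KLF3 (0.9978), TMEM63A (0.9976), LGALS3BP (0.9974) and MEF2A (0.9971), as a description over 6 arrays chosen from many genes. ANKRD29 spanned the most, at 9.79, 8.27 and 7.64 with the empty vector and 7.87, 7.81 and 9.58 with GHSROS. LGALS3BP is itself on the interferon-stimulated list.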

How the data were processed

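The deposited table holds log2 expression per probe set for 6 arrays, which the authors computed by RMA, per the submitters' processing notes. Its version, steps and filters are not given in the sources used. The usual RMA quantile normalizes the arrays, which removes a shift shared by most genes. Arrays carry no read depth, and their number limits the precision. Groups and replicate numbers come from the sample titles, and 0 array columns were left out. Of 28869 probe sets, the platform annotation gave 19310 1 symbol and 1752 several, and 7807 were not listed.

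Each gene was read by its brightest probe set over 6 arrays. Genes of the pathway lists with no probe set of their own were read by probe sets with several symbols, which added 4 features, to 18381 in all. GHSROS and the empty vector were compared by a two-sided limma 3.58.1 test (R 4.3.3; lmFit, eBayes, no term but the group), adjusted over the whole table after Benjamini-Hochberg, with a threshold of 0.05. The script was tested on simulated data. Named beside the members were the heavy chains, the replaced catalytic subunits, IRF1, CIITA and RFX5, the 2 largest differences of each list and the 5 genes most like the most variable member. Members and lists were chosen with earlier results of these data known. The submitters call the cultures biological replicates; if they were not grown separately, p-values reflect technical spread only. Alternatives were other normalizations, filters, probe set rules, variance models, the replicate block and omitted arrays.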

Additional observations from a re-analysis of the deposited data

How the results depend on the processing

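Under the 18 alternative settings, 0 genes of the whole table and 0 members passed in limma, and the lowest unadjusted p of a member was 0.0376, for TAPBP without both arrays numbered 3 (adjusted p = 0.532). Of 178 fold changes of members under these settings, 145 kept their direction and 33 turned. The filter at the median level left NLRC5 and ERAP2 untested. The cause of each change below was not tested, and for omitted arrays fewer arrays entered the fit.

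The number of genes at an unadjusted p of 0.05, 324 in the main analysis, was 76 among genes at or above the median level, 187 above the 25th percentile, 565 over all probe sets, 877 with array weights and 1709 without both arrays numbered 3. With single arrays left out it ran from 191 to 480. The number of members with a higher mean, 5 in the main analysis, was 3 with array weights and 2 without both arrays numbered 3, and ran from 2 to 8 with single arrays left out. Their median log2 fold change was -0.37 without both arrays numbered 3.

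After quantile normalization PSMB8 turned to 0.022. With array weights B2M was at -0.058, TAP1 at -0.12, TAP2 at 0.018 and TAPBP at -0.14. Without both arrays numbered 3 B2M was at -0.40, TAP1 at -0.46, TAP2 at 0.13, TAPBP at -0.40 and PSMB10 at -0.28, while PSMB9 kept its direction at -0.65 (unadjusted p = 0.0409 in limma, adjusted p = 0.532). Without both arrays that stood apart TAPBP was at -0.034. With single arrays left out the log2 fold change ran from -0.23 to 0.30 for B2M, -0.22 to 0.32 for TAP1, -0.15 to 0.080 for TAP2, -0.22 to 0.21 for TAPBP, -0.25 to 0.20 for PSMB8 and -0.41 to 0.24 for PSMB9. It ran from -0.20 to 0.35 for PSMB10, -0.18 to 0.013 for NLRC5, 0.08 to 0.25 for ERAP1 and -0.32 to 0.11 for ERAP2.

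With the replicate number as a block, 0 members passed, 5 were higher and 223 genes had an unadjusted p under 0.05. Same-numbered arrays deviated together for number 2 (r = 0.504) and not for numbers 1 (-0.715) and 3 (-0.669), so the numbers were not taken to pair the cultures. Across numbers, r was highest for GHSROS array 3 against empty-vector array 1 (0.831). It was 0.738 for GHSROS array 1 against empty-vector array 3. The remaining pairs of unlike number lay between -0.550 and 0.272. Whether the cultures were matched in this crossed way was not tested, and the main test held no term for it.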
